A study of Mus musculus with 15 samples.

Results

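The granule proteases that mark mouse basophils were examined across all 15 RNA-seq libraries of sorted lung cells. The set consists of 5 genes taken by symbol, Mcpt8, Prss34, Cpa3, Ctsg and Ctse, out of 21110 gene rows in the deposited table. Each of the 5 symbols matched 1 row. RNA was sequenced from 3 kinds of immune cell sorted from the lungs of C57BL6/J mice, either naive (no treatment) or given papain, a plant protease used as an airway allergen, into the nose at 50 ug per mouse on 3 days. Basophils were sorted by the IgE receptor and CD49b and had to lack c-kit. Eosinophils were sorted by SiglecF with little Gr1 and no autofluorescence. Natural helper cells (group 2 innate lymphoid cells, lymphocytes without antigen receptors) were sorted as lineage-negative cells with Thy1.2, the interleukin-7 receptor and CD25. Basophils and natural helper cells had 2 libraries in the naive and 2 in the papain state. Eosinophils had 2 naive libraries, and after papain 2 from a CD11c-negative and 2 from a CD11c-positive gate. A last library, of papain natural helper cells, carries the label 3'UTRKO without a gene name. It makes up the last of the 8 groups. Neither the age of the mice nor the number of mice behind a library is given in the labels. The labels do not say whether replicates came from separate animals, so p-values reflect the spread among libraries alone, which may be technical.

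Basophils and mast cells store proteases in cytoplasmic granules, bound to the proteoglycan serglycin, and release them when the IgE receptor is crosslinked. Mcpt8 encodes the mouse basophil protease also called mMCP-8, and Prss34 encodes the tryptase-like mMCP-11. Both are serine proteases and are used as basophil markers in the mouse. Ctsg encodes cathepsin G, a chymase-related serine protease best known from neutrophil granules. Cpa3 encodes carboxypeptidase A3, a metalloprotease shared by mast cells and basophils, and Ctse encodes cathepsin E, an aspartic protease of intracellular compartments in several immune cells.

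Values are FPKM, fragments scaled to transcript length and library size, rounded to whole numbers in the deposited table. Library totals were between 374841 and 570208 FPKM, and 9995 to 13049 genes were above 0. The read depth is unknown, so no counting interval is given, and a gene listed at 0 may have had fragments below the rounding. Differences are in log2(FPKM + 1) with their standard error, and a call means an adjusted p below 0.05 in limma (Benjamini-Hochberg, over the 14257 genes tested). All 5 members were among the genes tested, and Ctsg passed the filter (1 FPKM or more in at least 2 libraries) only through naive libraries. Prss34 passed it only through basophil libraries, and Mcpt8 reached 1 FPKM in only 1 library outside basophils.

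Promoter sequence is shown for the members because GATA2 is a known regulator of basophil and mast cell genes and Gata2 itself was abundant in these basophils. Promoters of 300 bases, from 250 before to 50 after the transcription start, were read from RefSeq (GRCm38.p6), which is another build than the mm9 used for the expression table, and 4 of the 5 members were matched. The GATA-type motif AGATAA was searched on both strands. It lay in 2 of the 4 windows, beginning 46 bases before the start of Cpa3 and 31 bases before the start of Prss34. The motif is in capitals in the stretches below, which are written 5′ to 3′ on the strand of the gene. The Cpa3 stretch is chr3:20242210-20242239 on the minus strand, and the Prss34 stretch is chr17:25298351-25298380 on the plus strand.
Cpa3: agctgttcgtcgAGATAAaagctgaggtat
Prss34: cctgtggaagaaAGATAAatgggaccctgg
The letters AGATAA were not in the windows of Mcpt8 and Ctsg. Over all 32851 RefSeq promoters of the same length, 3672 held the motif (11.2%). Of 8 other basophil marker genes, 3 held it. They were the IgE receptor chains Fcer1a and Ms4a2 and the activating receptor Cd200r3. Of 3 mast cell proteases searched, 2 were matched, Mcpt4 and Cma1, and 0 held the motif. A stretch of the Fcer1a promoter, chr1:173227304-173227333 on the minus strand, carries the motif on the opposite strand, where it reads TTATCT, and is shown for comparison.
Fcer1a: acaaccctattaTTATCTctggagaaagcc
A match describes the letters of the window and says nothing of binding.

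The serine protease Mcpt8 had the highest level of the 5 in 3 of the 4 basophil libraries. It stood at 824 and 252 FPKM in naive basophil libraries 1 and 2 and at 30 and 95 in papain basophil libraries 1 and 2. Outside basophils it was listed at 2 FPKM in naive eosinophil library 2 and at 0 in the other 10 libraries. The order was therefore naive basophils, then papain basophils, then all other groups, with no overlap between naive and papain basophils or between papain basophils and the rest. By level, Mcpt8 was gene 90 and gene 232 in the naive basophil libraries and gene 1957 and gene 694 in the papain basophil libraries.

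Prss34, the basophil tryptase, was listed at 0 in all 11 libraries of eosinophils and natural helper cells. In naive basophils it stood at 700 and 48 FPKM, and in papain basophils at 7 and 20. The groups did not overlap, but the naive replicates lay 14.6-fold apart. Ctsg, cathepsin G, was at 35 and 11 FPKM in naive basophils and was listed at 0 in both papain basophil libraries. Outside basophils, 1 library had it above 0, naive eosinophil library 2 at 6 FPKM. That library also carried Elane (21 FPKM), Prtn3 (13) and Mpo (17), granule genes of neutrophil precursors that were all at 0 in naive eosinophil library 1. Elane, Prtn3 and Mpo were at 1, 2 and 16 FPKM in naive basophil library 1 and at 0 in naive basophil library 2, where Ctsg was 11 FPKM. Their part in the Ctsg values was not tested.

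Cpa3, the carboxypeptidase, was present in every library. It stood at 278 and 231 FPKM in naive basophils and at 47 and 9 in papain basophils, with no overlap. In natural helper cells it was lower, at 6 and 12 FPKM (naive), 7 and 5 (papain) and 4 (3'UTRKO). In eosinophils it was between 1 and 7 FPKM. The papain basophil range of 9 to 47 overlapped that of naive natural helper cells, and from there down the order each group overlapped the next.

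Ctse, cathepsin E, had another distribution. Naive basophils had 14 and 25 FPKM and naive eosinophils 14 and 17, so the 2 groups overlapped. The papain eosinophils had 10 and 7 FPKM in the CD11c-negative gate and 7 and 8 in the CD11c-positive gate. Natural helper cells had 5 and 3 in the naive state, 4 and 4 after papain and 8 in the 3'UTRKO library. Papain basophils, at 2 and 0 FPKM, were the lowest of the 8 groups for Ctse and did not overlap any other group.

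**Figure D1:**
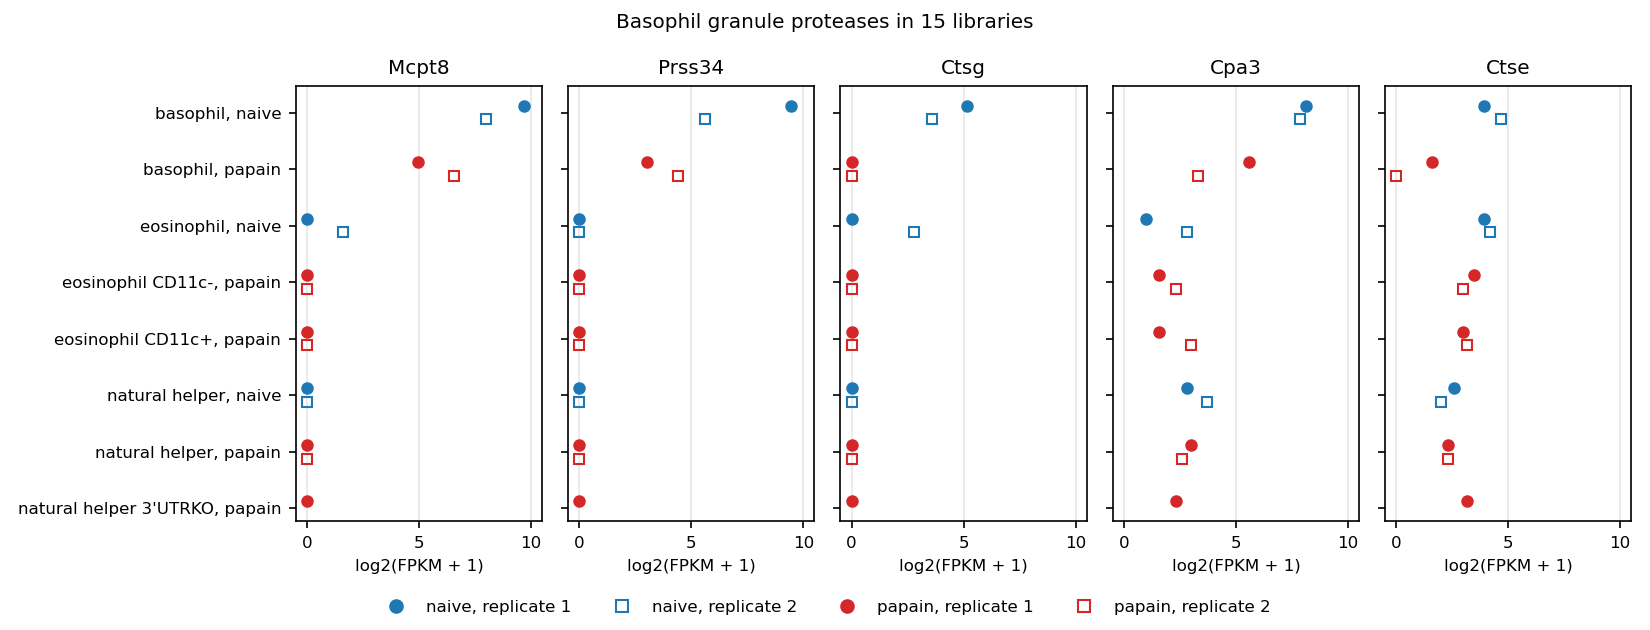
Level as log2(FPKM + 1) of Mcpt8, Prss34, Ctsg, Cpa3 and Ctse, 1 panel per gene, by cell type and treatment; each symbol is 1 of the 15 libraries (circle for replicate 1, square for replicate 2, naive in blue, papain in red). Mcpt8 and Prss34 are above 2 FPKM only in the 4 basophil libraries, where Prss34 is at 7 and 20 FPKM after papain. Ctse is as high in naive eosinophils (14 and 17 FPKM) as in naive basophils (14 and 25).

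How the members differed between sorted basophils of naive and papain mice was asked with 2 libraries a group. All 5 members were lower in papain basophils and all 5 were called. Ctsg entered the test only through libraries in which it was high, so its call is read apart from those of the other 4. For reading that count, 3.88% of all genes tested were called lower and 22.1% higher in the same comparison. These shares depend on the scaling and were 8.22% and 15.6% with median-ratio scaling and 12.1% and 10.0% with quantile normalization, while all 5 members stayed called under both. In log2, Mcpt8 fell by 3.07 ± 0.70 (adjusted p = 0.0148) and Prss34 fell by 3.84 ± 0.99 (adjusted p = 0.0229) in limma. Cpa3 fell by 3.54 ± 0.83 (limma adjusted p = 0.0166) and Ctse fell by 3.51 ± 0.49 (limma adjusted p = 0.00188). For Ctsg, listed at 0 in both papain libraries, the fitted value of -4.38 ± 0.78 (limma adjusted p = 0.00547) depends on the pseudocount and is no fold. As ratios of group means, naive basophils held 8.61 times the Mcpt8, 27.7 times the Prss34, 9.09 times the Cpa3 and 19.5 times the Ctse of papain basophils. These ratios rest on few libraries. Leaving out single libraries moved them between 4.03 and 17.9 for Mcpt8, 3.56 (without naive library 1) and 53.4 (without papain library 2) for Prss34, and 5.41 (without papain library 2) and 28.3 (without papain library 1) for Cpa3. For Ctse, with rounded papain values of 2 and 0, the ratio was 9.75 without papain library 2 and has no bound without papain library 1. The median log2 difference of the members was -3.54, against 0.50 over all genes tested. The 5 members together made up 0.420% and 0.132% of all FPKM in the naive basophil libraries and 0.0177% and 0.0217% in the papain ones.

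The calls rested on the spread shared by all 8 groups and on single libraries. With the 4 basophil libraries alone, 0 of the 5 members passed (limma adjusted p between 0.11 and 0.272), with every member below its naive level. Leaving out naive basophil library 1 left 3 calls and ended those of Mcpt8 (limma adjusted p = 0.0661) and Cpa3 (0.057). Leaving out papain basophil library 1 also left 3 and ended those of Mcpt8 (limma adjusted p = 0.0662) and Prss34 (0.102). Without naive library 2 or papain library 2, 4 calls were left, and Cpa3 missed the threshold at limma adjusted p = 0.0796 and 0.0832. The size for Prss34 went from -1.92 without naive library 1 to -5.76 without naive library 2.

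Other basophil genes and genes of other cells moved in the same libraries. Of the 8 basophil markers, none a member, 6 were called lower, with a median log2 difference of -2.37. For reading this count and those below, 3.88% of all genes tested were called lower and 22.1% higher. The calls of Cd200r3, Cyp11a1 and Hdc ended without some single library, and 3 of the 6 ended with the 4 basophil libraries alone. Fcer1a, the IgE-binding chain of the receptor, was 141 and 194 FPKM before and 23 and 18 after papain, and Hdc, the histamine-forming enzyme, was 2955 and 3199 against 375 and 1188. The summed level of the 8 markers was 5566 to 5912 FPKM in naive and 720 to 2043 in papain libraries. Markers of fibroblasts summed to 5 to 50 FPKM in naive and 1411 to 3831 in papain basophils, and 6 of 7 were called higher. The sums were 6628 to 8712 and 20373 to 34294 for epithelium (5 of 8 higher), 29 to 49 and 107 to 319 for endothelium (5 of 7 higher), 48 to 166 and 405 to 11747 for macrophages (3 of 9 higher), and 251 to 505 and 3142 to 7464 for neutrophils and their precursors (2 of 9 higher). Most of the epithelial sum was Scgb1a1, at 6363 and 8531 against 19550 and 32382 FPKM and not called (limma adjusted p = 0.312). The epithelial Cdh1 was 139 and 150 against 39 and 121 and was not called. Chi3l3 made up most of the highest macrophage sum, at 10500 FPKM in papain library 1 and 109 in papain library 2. It was not called (limma adjusted p = 0.0936). B cell markers summed to 171 to 321 FPKM in naive and 31 to 94 in papain basophils (2 of 6 lower). Of the marker genes, Tek, Pdgfra and Camp were at 0 in both naive basophil libraries, and Elane and Prtn3 in both papain ones. Their part in the fall of the members was not tested. In bulk RNA, fewer cells of a type and less RNA per cell cannot be told apart.

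**Figure D2:**
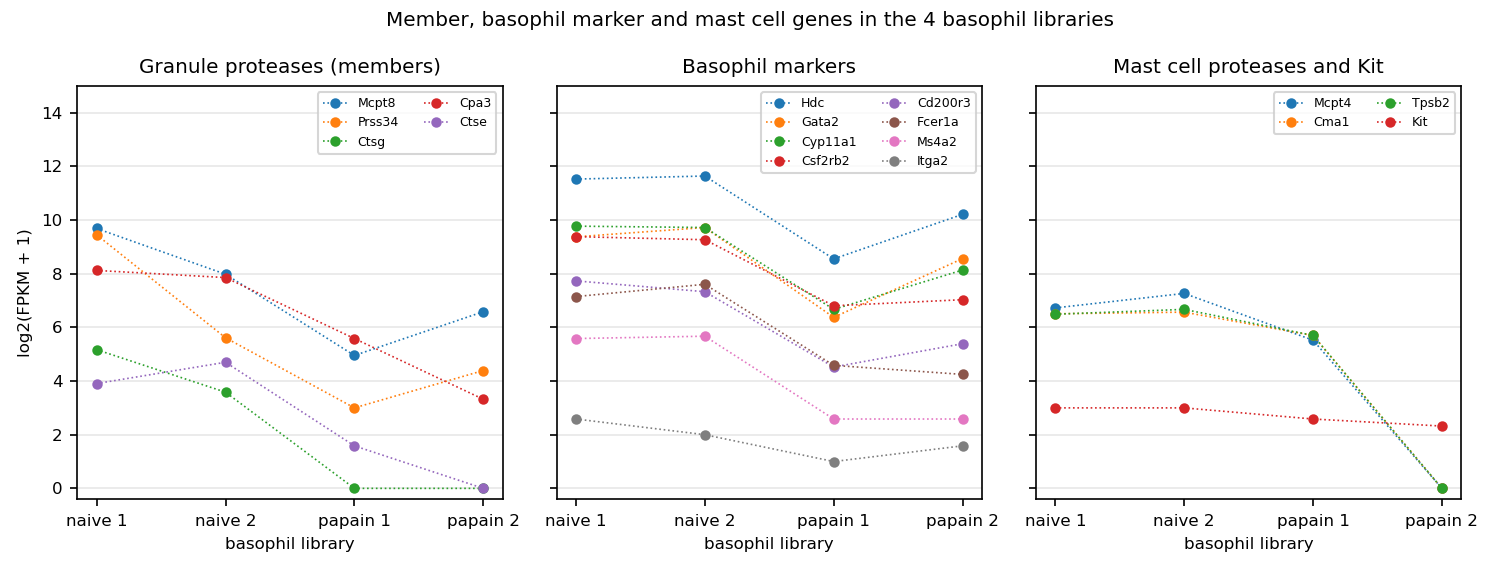
Level as log2(FPKM + 1) of the 5 members, the 8 basophil markers, and the mast cell genes Mcpt4, Cma1, Tpsb2 and Kit in the 4 basophil libraries; each point is 1 library and the dotted lines join the values of 1 gene without implying an order. Every member and every basophil marker is lower in both papain libraries than in both naive ones, and Prss34 spans 48 to 700 FPKM within naive basophils.

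Each member was therefore also expressed relative to the mean log2 level of the 8 basophil markers of its own library, in the 4 basophil libraries. On that scale 1 of the 5 members, Ctsg, was called lower, at -2.05 ± 0.76 (limma adjusted p = 0.0379). Within these 4 libraries Ctsg passed the filter only through the naive ones, where it was high, so its call is read apart. The Ctsg value rests on papain levels of 0 and on the pseudocount, and with a pseudocount of 5 it was -0.22 (limma adjusted p = 0.705). Of all 12758 genes tested 0.0314% were called lower and 87.8% in either direction, with a median of 2.83 over all genes, because the subtracted marker mean was lower in the papain libraries. With that many genes called, the adjustment did little. The unadjusted limma p was 0.0322 for Ctsg and 0.308 for Mcpt8, so the adjusted values of this fit are nearly unadjusted. Mcpt8 was at -0.74 ± 0.67 (limma adjusted p = 0.315), Cpa3 at -1.21 ± 0.97 (0.26), Ctse at -1.18 ± 0.91 (0.242) and Prss34 at -1.51 ± 1.16 (0.244). In this fit a fall beyond that of the other basophil genes was thus not shown for these 4, nor was an equal fall. With the replicate number as a block, which is a shared label only, Prss34 (limma adjusted p = 0.00158) and Cpa3 (0.0105) were also called lower. In that fit 12166 genes were called, so the adjustment did little there too. Without naive basophil library 1, Mcpt8 was at 0.10 and Prss34 at 0.40 and none of the 4 members tested was called; Ctsg, then above 0 in 1 library, was not tested. Ctsg was also lost without papain library 1 (limma adjusted p = 0.123) or papain library 2 (0.216). Cpa3 became called, at -2.76, without papain library 1 (limma adjusted p = 0.0388) and was at 0.34 without papain library 2. Prss34 became called, at -3.42, without naive library 2 (limma adjusted p = 0.0131).

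The per-library ratios show where the members part from the markers. Mcpt8 was 27.9% of Hdc in naive library 1 and 7.88%, 8.0% and 8.0% in naive library 2 and the papain libraries. Prss34 was 23.7% of Hdc in naive library 1 and 1.5%, 1.87% and 1.68% in the other 3. Naive library 1 thus stood apart for both serine proteases, while naive library 2 had the same proportion to Hdc as the papain libraries. The choice of marker matters. As a percentage of Fcer1a, Mcpt8 was 584, 130, 130 and 528 in the same order, so that papain library 2 was close to naive library 1. Naive library 1 had the highest ratio for Prss34 and for Ctsg beside 8 of 8 markers, for Mcpt8 beside 7 of 8, and for Cpa3 and Ctse beside 0 of 8.

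**Figure D3:**
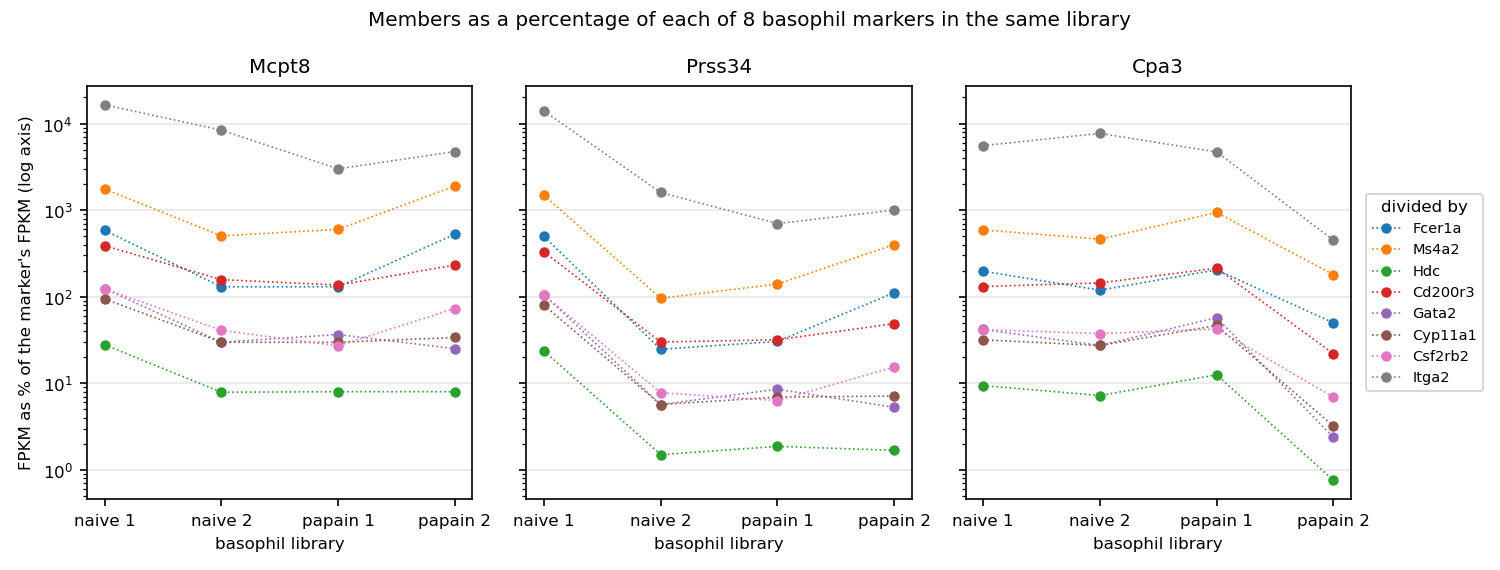
Mcpt8, Prss34 and Cpa3 as a percentage of each of the 8 basophil markers in the same library, on a log axis, for the 4 basophil libraries; each point is 1 ratio and the dotted lines join the ratios to 1 marker without implying an order of libraries. Naive library 1 has the highest Prss34 ratio for 8 of 8 markers, and papain library 2 has a low Cpa3 ratio (0.758% of Hdc against 12.5% in papain library 1).

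The spread between naive replicates was unlike that of other basophil genes. Naive library 1 over naive library 2 was 14.6 for Prss34, 3.27 for Mcpt8 and 3.18 for Ctsg, against 0.727 to 1.67 for the 8 markers, 1.20 for Cpa3 and 0.56 for Ctse. Among the 2950 genes at 10 FPKM or more in both naive basophil libraries, 5 (0.169%) differed between them at least as much as Prss34 and 25 (0.847%) at least as much as Mcpt8, in either direction. The median fold between the libraries was 1.27. In papain basophils the order of Mcpt8 and Cpa3 was opposite. Papain library 2 over papain library 1 was 3.17 for Mcpt8 and 2.86 for Prss34 but 0.191 for Cpa3, and the markers lay between 0.783 and 4.61.

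Cpa3 is also a mast cell gene, and the mast cell proteases were measured beside it. Mcpt4 and Cma1, chymases of connective tissue mast cells, and the tryptase Tpsb2 summed to 284 and 348 FPKM in naive basophils and to 147 and 0 in papain basophils. All 3 were at 0 in papain library 2, the basophil library with the lowest Cpa3 (9 FPKM), and papain library 1 had 45, 51 and 51 FPKM of them beside 47 FPKM of Cpa3. None of the 3 was called (limma adjusted p = 0.053 for Mcpt4, 0.1 for Cma1 and 0.0908 for Tpsb2). Kit, the mast cell receptor that the basophil gate excludes, was 7, 7, 5 and 4 FPKM in the 4 basophil libraries. Of the whole mast cell list, 1 of 7 genes tested was called lower in papain basophils, beside 3.88% of all genes. The list summed to 295 to 358 FPKM in naive and 4 to 157 in papain libraries. The part of mast cell RNA in the Cpa3 values was not tested. In natural helper cells, where Cpa3 was 4 to 12 FPKM, Mcpt4, Cma1 and Tpsb2 were at 0 in all 5 libraries. In eosinophils, where Cpa3 was 1 to 7 FPKM, all 3 were above 0 in every library. There Mcpt4 was 1 to 6 FPKM, Cma1 was 1 to 11 and Tpsb2 was 1 to 6. Like Cpa3, each was highest among eosinophils in papain CD11c-positive library 2.

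Which cell types carried the members before papain was asked by comparing naive basophils with the other naive cells. Without the basophil libraries, Mcpt8, Prss34 and Ctsg would not have passed the filter. Their calls here are therefore read apart from those of Cpa3 and Ctse. Against naive eosinophils 4 of 5 members were called higher, where 5.3% of all genes were. Mcpt8 was higher by 8.04 ± 0.70 (limma adjusted p = 0.000182), Cpa3 by 6.09 ± 0.83 (0.00151) and Ctsg by 2.97 ± 0.78 (0.0357), and Prss34, at 0 in the eosinophils, was also called (limma adjusted p = 0.00121). Ctse differed by 0.27 ± 0.49 (limma adjusted p = 0.865), less than the spread between replicates. The Ctsg call was lost without naive basophil library 1 (limma adjusted p = 0.159) and without naive eosinophil library 1 (0.144). Against naive natural helper cells all 5 members were called higher, where 6.96% of all genes were. Cpa3 was higher by 4.74 ± 0.83 (limma adjusted p = 0.00501) and Ctse by 2.01 ± 0.49 (0.0212), while Mcpt8, Prss34 and Ctsg were listed at 0 in the natural helper cells (limma adjusted p = 8.03e-05, 0.0011 and 0.00524). The Ctse call was lost without naive basophil library 2 (limma adjusted p = 0.135) and without either natural helper cell library (0.0545 and 0.107).

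After papain the basophil pattern was narrower. Mcpt8 was called higher in papain basophils than in CD11c-negative eosinophils (limma adjusted p = 0.00175), CD11c-positive eosinophils (0.00211) and papain natural helper cells (0.0011), all of which had it at 0. As in the naive comparisons, Mcpt8 and Prss34 passed the filter through basophil libraries, so their calls are read apart. Prss34, also at 0 in those cells, passed against CD11c-negative eosinophils (limma adjusted p = 0.0449) and natural helper cells (0.0314) and missed against CD11c-positive eosinophils (0.0624). Leaving out any 1 of papain basophil library 2 or the CD11c-negative eosinophil libraries ended the former Prss34 call (limma adjusted p = 0.154 to 0.193), and leaving out papain basophil library 2 or either natural helper cell library ended the latter (0.122 to 0.177). Cpa3 differed by 2.50 ± 0.83, 2.16 ± 0.83 and 1.66 ± 0.83 from the 3 groups and was not called (limma adjusted p = 0.0886, 0.163 and 0.202), but passed against CD11c-negative eosinophils without papain basophil library 2 (0.0486).

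Ctse went the other way after papain. It was lower in papain basophils than in CD11c-negative eosinophils by -2.44 ± 0.49 (limma adjusted p = 0.0173) and than in CD11c-positive eosinophils by -2.29 ± 0.49 (0.0296). Both calls were lost without papain basophil library 2 (limma adjusted p = 0.052 and 0.0982) or without either library of the eosinophil gate compared (0.0501 to 0.159). Against papain natural helper cells the Ctse difference of -1.53 ± 0.49 missed the threshold (limma adjusted p = 0.0588) and passed without papain basophil library 1 (0.00564). Called in either direction were 3 of 5 members against the CD11c-negative gate, 2 against the CD11c-positive gate and 2 against natural helper cells, beside 11.4%, 6.26% and 19.7% of all genes. These counts include the Mcpt8 and Prss34 calls that are read apart.

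In eosinophils and natural helper cells, 0 of 5 members were called between naive and papain states, and 0 had an unadjusted limma p under 0.05. Mcpt8, Prss34 and Ctsg were at 0 in every natural helper cell library and Prss34 in every eosinophil library, so these members could not be called there. Mcpt8 and Ctsg were above 0 in 1 eosinophil library. Without naive eosinophil library 1, Ctsg passed in the CD11c-positive comparison (limma adjusted p = 0.0366). The background was 0.786% of genes called in natural helper cells, 2.24% in CD11c-negative and 12.1% in CD11c-positive eosinophils. Ctse, the member with the highest level in eosinophils, was lower in papain than in naive eosinophils without overlap, by -0.81 ± 0.49 (limma adjusted p = 0.533) in the CD11c-negative and -0.95 ± 0.49 (0.245) in the CD11c-positive gate. Between the CD11c gates 0 of 5 members were called by limma and 0 had an unadjusted p under 0.05, beside 0.0561% of genes called. The 3'UTRKO library had Ctse at 8 FPKM against 4 and 4 in the other papain natural helper cells, a difference of 0.85 ± 0.60 (limma adjusted p = 0.785), with its spread assumed to be that of the other groups. With 1 library this difference has no replicate check. In that fit 0 of the 5 members were called by limma and 0 had an unadjusted p under 0.05, beside 0.568% of genes, and Mcpt8, Prss34 and Ctsg were at 0 in all 3 libraries compared.

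Whether the papain difference depended on the cell type was tested directly as a difference of log2 differences. Between basophils and natural helper cells it was called for Ctse, at -3.54 ± 0.69 (limma adjusted p = 0.02), and for Ctsg, at -4.38 ± 1.10 (0.0498). Of all genes, 2.12% were called in that direction. Ctsg was at 0 in every natural helper cell library, so its value is the basophil difference itself. Mcpt8 and Prss34 were likewise at 0 in natural helper cells and were not called (limma adjusted p = 0.109 and 0.143), nor was Cpa3 (0.158). Against the eosinophil gates 0 of 5 members were called by limma, while 5 of 5 had an unadjusted p under 0.05 in each (adjusted p 0.0909 to 0.292 for the CD11c-negative and 0.106 to 0.301 for the CD11c-positive gate, beside 2.36% and 2.52% of genes called). These comparisons share the 4 basophil libraries. The Ctsg call ended whichever of the 8 libraries was left out (limma adjusted p = 0.0638 to 0.159). The Ctse call ended without naive basophil library 2 (limma adjusted p = 0.0778), naive natural helper cell library 2 (0.0686), papain natural helper cell library 1 (0.0813) or papain natural helper cell library 2 (0.0667).

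Mcpt8 and Ctsg are neighbours in the mast cell protease and granzyme cluster of chromosome 14. In RefSeq (GRCm38.p6) the protein-coding order is Cma1, Cma2, Mcpt1, Mcpt2, Mcpt9, Mcpt4, Mcpt8, Ctsg, Gzme, Gzmd, Gzmg, Gzmn, Gzmf, Gzmc and Gzmb. Along that order, Mcpt1, Mcpt2, Mcpt9 and Gzmn were at 0 in both naive basophil libraries, while Mcpt4 (105 and 153 FPKM), Gzmc (1780 and 1670) and Gzmb (2582 and 2919) were high. Mcpt8 and Ctsg were the cluster members that were more than 3-fold higher in naive library 1, and Gzme (24 and 24), Gzmg (17 and 18) and Cma1 (90 and 94) were alike in both. Prss34 lies on chromosome 17 near the tryptase Tpsb2, Cpa3 on chromosome 3 and Ctse on chromosome 1. No stretch of 36 bases in the longest GENCODE M21 transcript of a member occurs in another gene, whereas 9.41% of the Mcpt4, 9.1% of the Cma1 and 12% of the Gzmc stretches do, so values of those relatives may be divided between copies.

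**Figure D4:**
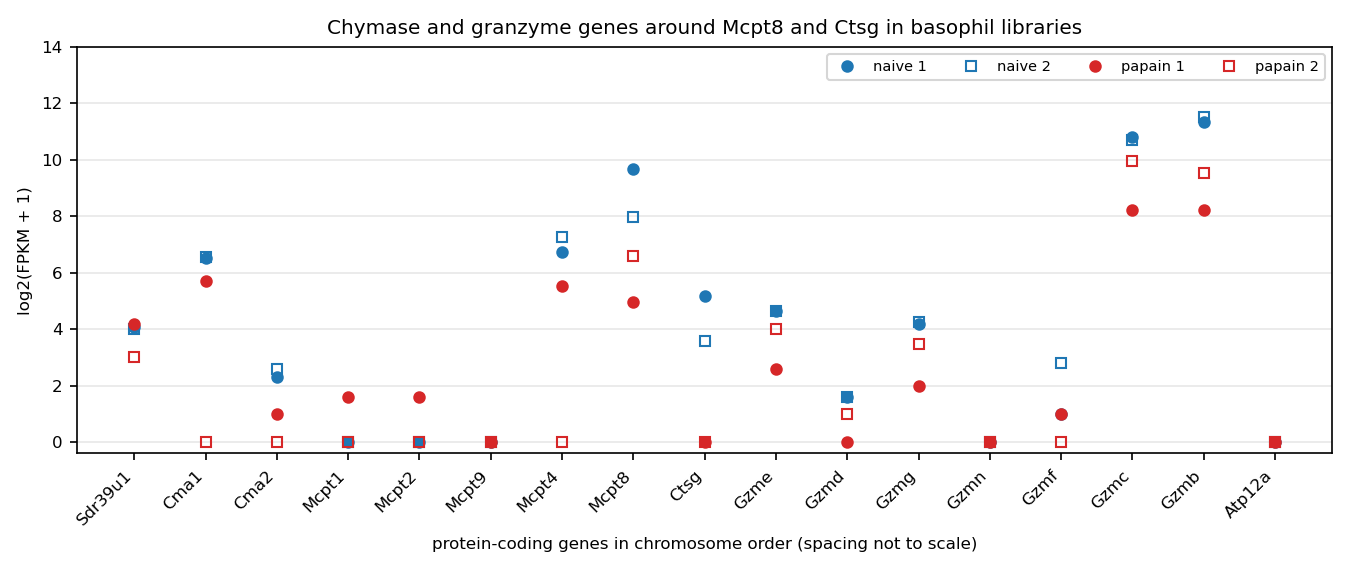
Level as log2(FPKM + 1) of the protein-coding genes of the chromosome 14 protease cluster and the next gene on each side (Sdr39u1 and Atp12a), in RefSeq order with spacing not to scale; each symbol is 1 of the 4 basophil libraries. Mcpt8 (252 to 824 FPKM in naive libraries) stands between Mcpt4 and Ctsg, and Gzmb and Gzmc at the far end are higher still.

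Related proteases were described from lists chosen by family, with the median of 0.50 for all genes beside them. Of all genes, 22.1% were called higher and 3.88% lower in papain basophils. Of the mast cell chymases and tryptases, 7 were tested and 2 were called lower in papain basophils, Cma2 (4 and 5 to 1 and 0 FPKM) and Tpsg1 (1 and 1 to 0 and 0), with a median of -1.95. Tpsg1 passed the filter only through the naive basophil libraries and was at 0 in the other 13, so its call is fixed by the filter and the rounding. Cma2 was at 0 in every library outside basophils, so its call rests on rounded values near 0. With the 4 basophil libraries alone, 1 of these 2 calls ended. Of 11 granzymes and neutrophil serine proteases tested, 3 were called lower and 0 higher (median -1.08). They were the cytotoxic granule protease Gzmb (2582 and 2919 to 295 and 739 FPKM, limma adjusted p = 0.0255), Gzmg (17 and 18 to 3 and 10) and Gzmd (2 and 2 to 0 and 1), and each of these 3 calls ended without some single library. All 3 also ended with the 4 basophil libraries alone. Gzmd was at 0 in every library outside basophils, so its call too rests on rounded values near 0. Gzmc (1780 and 1670 against 296 and 992) was not called (limma adjusted p = 0.0806). Of the carboxypeptidases related to Cpa3, 1 of 7 was tested, Cpb1, and it reached at most 1 FPKM in basophils.

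Among the cathepsins other than the members, 6 of 12 tested were called higher in papain basophils and 0 lower (median 2.12), where 22.1% of all genes were higher. The lysosomal cysteine proteases Ctsb (36 and 9 to 198 and 151 FPKM) and Ctsl (17 and 13 to 158 and 85) and the aspartic protease Ctsd (97 and 116 to 874 and 231) were among them, with Ctsh, Ctsk and Ctsz. The calls of Ctsd and Ctsk ended without some single libraries (limma adjusted p up to 0.108 and 0.169). Ctsd is of the same protease class as Ctse. Ctsc, dipeptidyl peptidase I, which activates granule serine proteases, was 97 and 65 FPKM against 153 and 43 and was not called (limma adjusted p = 1). The macrophage, fibroblast and epithelial marker sums given above rose in the same libraries.

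Genes that package and release granule proteases were mixed, with 3 of 16 tested higher and 3 lower (median 0.02), beside 22.1% and 3.88% of all genes. The number called higher was thus near the share of all genes. Srgn, the serglycin core protein, fell from 5777 and 6010 to 1955 and 2532 FPKM (limma adjusted p = 0.00425). Slc18a2, the vesicular amine transporter that loads histamine, fell from 905 and 687 to 142 and 163 (limma adjusted p = 0.000579), and Rab27a, a small GTPase of granule docking, fell from 21 and 25 to 9 and 3 (0.0125). The lysosomal membrane protein Lamp1 rose from 41 and 27 to 187 and 123 FPKM, and Vamp8 and Ndst1 were also called higher. The calls of Rab27a and Ndst1 ended without some single library, and all 6 calls of this list ended with the 4 basophil libraries alone. The members' ratio to serglycin message was not tested.

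Of 19 protease inhibitors tested, 9 rose and 1 fell (median 1.94), beside 22.1% and 3.88% of all genes. Among the 9 were Serpinb6a, a serpin that inhibits cathepsin G, from 9 and 5 to 83 and 62 FPKM (limma adjusted p = 0.000333), Cstb, an inhibitor of cysteine cathepsins, from 90 and 56 to 543 and 737 (0.000395), and Timp1, an inhibitor of matrix metalloproteases, from 10 and 1 to 385 and 239 (0.00203). Cst7, cystatin F, fell from 80 and 62 to 14 and 37 FPKM (limma adjusted p = 0.0294). Of these 10 calls, 5 ended without some single library, Cst7 among them, and all 10 ended with the 4 basophil libraries alone. Of 11 transcription factors of basophils and mast cells, Bhlhe40 was called higher (55 and 38 to 100 and 163 FPKM) and Gata1 (3 and 3 to 1 and 2) and Runx1 (33 and 21 to 12 and 17) lower. All 3 of these calls ended without some single library, and all 3 with the 4 basophil libraries alone. Gata2 was 664 and 845 FPKM against 82 and 378 and was not called (limma adjusted p = 0.0546).

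The genes most like each member were found by Pearson's r of log2(FPKM + 1) over the 15 libraries among 6028 genes, as a description in which the 4 basophil libraries carry most of the contrast. Nearest to Mcpt8 were Gzmg (r = 0.985), Amigo2 (0.981), Fcer1a (0.98), Ptgfr (0.98) and Ms4a2 (0.976), with Prss34 at 0.972. Nearest to Prss34 were Dnase2b (0.974), Ptgfr, Mcpt8, Gzmg and Ms4a2, and nearest to Cpa3 were Ms4a2 (0.925), Ptgfr, Slco2b1, Scin and Tulp4. Ctsg had lower values throughout, led by Pdzd8 (0.883), Cpt1a, Prkd3, Mylip and Tbc1d4. Ctse was nearest to Arhgap15 (0.933), Rab27a (0.899), Dennd4a, Stk10 and Stk17b, and its r with Mcpt8 was 0.0169. Over the 15 libraries, r among Mcpt8, Prss34 and Cpa3 was between 0.876 and 0.972. Ctsg had r between 0.746 and 0.774 with these 3 and 0.567 with Ctse. Ctse did not vary with Mcpt8, Prss34 or Cpa3 (r at most 0.169). Within basophils Mcpt8, Prss34 and Cpa3 did not vary alike. In that order, naive library 1 over naive library 2 was 3.27, 14.6 and 1.20. Papain library 2 over papain library 1 was 3.17, 2.86 and 0.191.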

How the data were processed

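RNA-seq values of 15 libraries in 8 groups were analysed. TopHat 1.4.0, Cufflinks 1.3.0 and the mm9 genome are named per the submitters' processing notes. The authors deposited 1 score per gene symbol and library, taken here as FPKM that the authors rounded to whole numbers, a unit read from the values and the tool because the file header names only samples. The annotation and counting strand are not given in the sources used here. Digit-grouping commas were removed from 1008 cells, and 3 cells next to 0 were set to 0. Depth cannot be recovered, so precision comes from replicate spread.

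The 14257 genes that reached 1 FPKM in 2 or more libraries were tested as log2(FPKM + 1), pseudocount 1, in limma 3.58.1 (R 4.3.3), with 1 coefficient per group over all 15 libraries (7 residual degrees of freedom), eBayes (trend), two-sided p-values and a Benjamini-Hochberg threshold of 0.05. For the comparison relative to basophil markers, the mean log2(FPKM + 1) of Fcer1a, Ms4a2, Hdc, Cd200r3, Gata2, Cyp11a1, Csf2rb2 and Itga2 was subtracted in each basophil library before the fit. The fit was tested on simulated data. Alternatives were other pseudocounts (0.5 and 5), filters, scalings, the compared groups only, a replicate block and leaving out single libraries.

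The members, lists and tests were chosen with earlier results of these data known. From each list the text names up to 4 genes whose mean reached 5 FPKM in a group, and genes called in papain against naive basophils, and for each member the 5 genes of highest r; further genes of the chromosome 14 cluster, and the neutrophil precursor genes, are named for their position or as markers. Promoters and gene order came from RefSeq (GRCm38.p6) and transcripts from GENCODE M21, with Ctse not in the promoter table used.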

Additional observations from a re-analysis of the deposited data

Results flagged for a closer look

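The papain difference of 2 members differed between basophils and natural helper cells by the test of the difference itself. For Ctse the basophil difference minus that of natural helper cells was -3.54 (limma adjusted p = 0.02), with 14 and 25 FPKM falling to 2 and 0 in basophils beside 5 and 3 against 4 and 4 in natural helper cells. For Ctsg it was -4.38 (limma adjusted p = 0.0498), with 35 and 11 FPKM against 0 and 0 in basophils and 0 in every natural helper cell library, so that it restates the basophil difference and depends on the pseudocount and the filter. The Ctsg call was lost in 11 of 16 alternatives, among them a pseudocount of 0.5 (limma adjusted p = 0.0575), no filter (0.11) and each of the 8 single libraries left out. The Ctse call was lost in 5 of 16, among them the compared groups only (limma adjusted p = 0.0934), where the Ctsg call was kept. Naive and papain basophils also differed in the marker sums of other cells given above, and the part of these in both values was not tested.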

How the results depend on the processing

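In papain against naive basophils, the 5 members lay below 0 in 60 of 60 member and alternative combinations, 48 on the same side of the threshold and 12 no longer past it. Their log2 ranges were -3.92 to -2.21 for Mcpt8, -5.76 to -1.92 for Prss34, -4.67 to -2.41 for Cpa3, -5.34 to -2.34 for Ctsg and -4.30 to -2.01 for Ctse. Members called went from 5 to 0 with the compared groups only and to between 3 and 4 without single libraries. Prss34 missed the threshold with no filter (limma adjusted p = 0.0524).

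With the compared groups only, the members called were also 1 (from 4) for naive basophils against naive eosinophils, 2 (from 5) against naive natural helper cells, 0 (from 3) for papain basophils against CD11c-negative eosinophils, 0 (from 2) against CD11c-positive eosinophils, 0 (from 2) against papain natural helper cells, and 1 (from 2) for basophil minus natural helper cell response. Without single libraries the 3 papain cell-type counts went from 1 to 3, 1 to 2 and 1 to 3 in that order, the naive ones from 3 to 4 and 4 to 5, CD11c-positive against naive eosinophils from 0 to 1 (1 without naive eosinophil library 1), and each of the 3 response differences from 0 to 2. With no filter the count was 1 for papain basophils against CD11c-positive eosinophils, 1 against papain natural helper cells and 1 for the response against natural helper cells, and Ctsg in naive basophils against eosinophils (limma adjusted p = 0.0795) and Prss34 in papain basophils against CD11c-negative eosinophils (0.0997) also missed. A pseudocount of 5 gave 1 for papain basophils against papain natural helper cells, and ended Prss34 against CD11c-negative eosinophils (limma adjusted p = 0.228), and 0.5 gave 1 for the response against natural helper cells. Calls were gained too. Prss34 passed against CD11c-positive eosinophils with a pseudocount of 0.5 (limma adjusted p = 0.0333), a 5 FPKM filter (0.0443), median-ratio scaling (0.0403) and quantile normalization (0.044). Ctse passed against papain natural helper cells with a 5 FPKM filter (limma adjusted p = 0.0437) and quantile normalization (0.0318), and the Mcpt8 response against natural helper cells with median-ratio scaling (0.0408). Quantile normalization gave 1 for each response against an eosinophil gate. Relative to basophil markers the count was 0 with a pseudocount of 5 and 0 to 1 without single libraries. The causes were not tested.

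Replicate numbers were shared between groups as labels only. Deviations of same-numbered naive and papain basophil libraries correlated at 0.116, and over 21 pairs of groups the correlation ran from -0.153 to 0.116. With the replicate block, papain against naive basophils kept a count of 5 members (3385 genes of all against 3705), the response against natural helper cells gave 1 (Ctsg was lost, limma adjusted p = 0.0738), and the comparison relative to markers gave 3 (Ctsg, Prss34 and Cpa3). The block also ended Ctsg in naive basophils against eosinophils (limma adjusted p = 0.0532) and Prss34 in papain basophils against CD11c-negative eosinophils (0.0624). No sample pairing is stated in the labels.

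Signs turned for these values, none of them called in the fit reported. For Cpa3 in CD11c-negative against naive eosinophils (0.05) they were -0.034 with a pseudocount of 5, -0.11 with median-ratio scaling and -0.37 with quantile normalization, and ran from -0.85 to 0.95 without single libraries. For Cpa3 in CD11c-positive against naive eosinophils (0.39) they were -0.22 with quantile normalization and -0.51 to 1.29 without single libraries. For Cpa3 between the gates (0.34) they were -0.37 to 1.05 without single libraries, and for Ctse (-0.14) -0.37 to 0.085. For Ctse in papain against naive natural helper cells (0.03) they were -0.20 with median-ratio scaling, -0.15 with quantile normalization and -0.26 to 0.32 without single libraries, and in naive basophils against eosinophils (0.27) -0.13 to 0.66 without single libraries. Relative to basophil markers, Ctse was 0.11 with a pseudocount of 5, and without single libraries the ranges were -2.39 to 0.024 for Ctse, -1.58 to 0.10 for Mcpt8, -3.42 to 0.40 for Prss34 and -2.76 to 0.34 for Cpa3.

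Over all genes, papain against naive basophils gave 3705 calls (3152 higher, 553 lower), 3401 with median-ratio scaling (2229 and 1172), 3148 with quantile normalization (1428 and 1720) and 490 with the compared groups only, 1228 without naive basophil library 2 and 2438 without papain basophil library 2. The median of all genes moved from 0.50 to 0.16 and -0.08 under these scalings, while every member stayed below it. Rounding to whole FPKM limits Ctsg and Ctse, whose papain basophil values are 0 to 2, and the deposited table gives no depth.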
